A study of Homo sapiens with 16 samples.

Results

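The regions compared were TOP2A cleavage cluster regions (CCRs) of etoposide-treated and vehicle-treated K562 cells on chromosomes 1 to 22. A CCR is a stretch of DNA where fragments released from covalent TOP2A complexes piled up after the enzyme was immunocaptured. The etoposide list held 173814 such regions and the DMSO list 296907, together 470721 of the 1481258 regions in the 5 lists of the series. Members were taken by treatment and chromosome alone, and each region was called shared if it overlapped a region of the other list by at least 1 bp, and otherwise etoposide-only or DMSO-only. K562 was established from human chronic myeloid leukaemia and has the BCR-ABL1 fusion. One group received 25 µM etoposide for 1 h in a final 0.05% DMSO, and the other 0.05% DMSO alone. The protocol gives vehicle exposures of 1 or 4 h, and the time of each DMSO library is not recorded. Each group had 3 libraries of TOP2A-bound DNA that were amplified before library preparation, and the authors pooled them into 1 list per treatment. There is therefore no replicate value per region and no test between treatments, and intervals given here cover counting error only.

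DNA topoisomerase II alpha cuts both strands of a duplex, passes another duplex through the gap and reseals it, staying covalently joined to the cut ends meanwhile. The enzyme is abundant in dividing cells, where it untangles replicated chromosomes. Etoposide sits at the cut and blocks resealing, so that cut complexes accumulate. It is used against leukaemias and other cancers, and its use is followed in some patients by secondary leukaemias with translocations of KMT2A and other genes. Vehicle-treated cells also hold cleavage complexes, which are the background against which the drug is read.

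Few promoters held a region of either treatment, and fewer held regions of both. RefSeq promoter windows (GRCh38.p14, 250 bp before to 50 bp after the start site) were matched for 15100 protein-coding genes. An etoposide region was in 344 of these windows and a DMSO region in 653, and 25 held a region of each list. The 25 are to be read against these numbers. In 19 promoters the upstream part held bases covered by both lists. The 4 shown have the highest lower-of-both scores among those with at least 50 such bases. They are printed because they are among the few places where an etoposide and a vehicle region coincide at a known start site. Each line gives the 250 bases before the start site, 5′ to 3′ on the gene's strand, with the bases covered in both lists in capitals.
ITGA2B: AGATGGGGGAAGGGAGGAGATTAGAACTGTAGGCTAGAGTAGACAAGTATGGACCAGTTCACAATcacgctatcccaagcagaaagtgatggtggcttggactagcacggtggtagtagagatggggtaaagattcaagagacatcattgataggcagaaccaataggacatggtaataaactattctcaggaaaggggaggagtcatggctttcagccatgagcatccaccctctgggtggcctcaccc
RPL34: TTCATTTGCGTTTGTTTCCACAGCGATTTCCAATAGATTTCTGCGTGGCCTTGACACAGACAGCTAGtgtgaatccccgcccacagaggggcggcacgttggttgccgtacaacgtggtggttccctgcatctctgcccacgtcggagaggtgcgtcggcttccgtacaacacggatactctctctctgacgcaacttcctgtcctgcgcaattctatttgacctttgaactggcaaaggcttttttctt
NMUR2: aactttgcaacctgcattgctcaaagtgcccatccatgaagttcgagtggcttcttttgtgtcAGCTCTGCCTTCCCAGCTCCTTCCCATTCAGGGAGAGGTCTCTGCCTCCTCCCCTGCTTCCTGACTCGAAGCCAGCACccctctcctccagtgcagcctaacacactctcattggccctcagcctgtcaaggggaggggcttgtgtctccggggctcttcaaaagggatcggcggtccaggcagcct
DOK4: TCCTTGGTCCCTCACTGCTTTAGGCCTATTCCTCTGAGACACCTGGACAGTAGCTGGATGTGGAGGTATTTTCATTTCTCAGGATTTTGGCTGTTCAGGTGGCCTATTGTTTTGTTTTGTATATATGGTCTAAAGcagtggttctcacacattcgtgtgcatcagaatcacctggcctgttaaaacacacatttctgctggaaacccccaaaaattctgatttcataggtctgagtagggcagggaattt
The ITGA2B window (chr17:44389650-44389899, minus strand) belongs to the gene of platelet integrin alpha-IIb. Its etoposide region ran from 44389779 to 44390326 with a score of 52.64, and its DMSO region from 44389835 to 44389959 with a score of 11.84. The RPL34 window (chr4:108620326-108620575, plus strand) precedes a ribosomal protein gene and had scores of 9.49 with etoposide and 25.37 with DMSO. The NMUR2 window (chr5:152405280-152405529, minus strand) precedes a neuromedin U receptor gene, and its scores were 8.14 and 12.17. In the DOK4 window (chr16:57487323-57487572, minus strand), upstream of a docking adaptor gene, they were 12.19 and 7.43, with 135 bases in common. GC content of the bases covered by both was 46.2% in ITGA2B, 44.8% in RPL34, 61.5% in NMUR2 and 43.7% in DOK4. The upstream parts were searched on both strands for short promoter motifs, each counted separately. The CCAAT box was present in ITGA2B, RPL34 and NMUR2, and in 34.1% of all 15100 upstream parts, 38.1% of those with an etoposide region in the window and 39.8% of those with a DMSO region. The letters TATAAA were in none of the 4 and in 9.30% of all. The GATA-type motif was searched only as AGATAA, which was in none of the 4 and in 6.86% of all. Other forms of it, such as TGATAG in the ITGA2B line, were not counted.

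The labelled line could be checked through its genome. K562 is known to lack a segment of 9p21 that holds MTAP, CDKN2A and CDKN2B. Between 21 and 26 Mb of chromosome 9 the etoposide list held 10 regions and the DMSO list 7, where the mean density of each list would put 335 and 572. MTAP and CDKN2B held none in either list and CDKN2A held 1, in DMSO. BCR and ABL1, parts of which this line is known to carry in extra copies, were sparse in both lists: BCR held 6 etoposide and 5 DMSO regions and ABL1 held 3 and 7. Per base these were 0.633 and 0.309 of the list means for BCR, and 0.251 and 0.343 for ABL1. Both genes thus carried fewer called regions than the average stretch, with or without the drug, and why was not tested.

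The etoposide list was shorter, and its median score was higher. It held 0.585 times as many regions as the DMSO list and covered 1.12% of the callable autosomes, set as the 100 kb bins with a region in either list, against 1.89% for DMSO. Median width was 158 bp with etoposide and 153 bp with DMSO. The deposited score, which has no stated unit, had a median of 7.79 with etoposide (quartiles 4.56 and 12.2) and 6.09 with DMSO (3.24 and 11.8). At the top the order turned: the highest of 10 equal groups by score began at 18.7 in etoposide and 20.6 in DMSO, and the maxima were 116 and 195. Scores below 4 were more frequent in the vehicle list: DMSO had 96568 such regions and etoposide 33157. With scores of at least 4 in both lists 140657 etoposide and 200339 DMSO regions were left, a ratio of 0.702, and with scores of at least 8 the ratio was 0.690.

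The low scores were multiples of fixed steps, and the lists differed in which steps they held. Coarse steps (0.339 in etoposide, 0.338 in DMSO) began at a score of 3.72, and fine steps (0.228 and 0.246 in etoposide, 0.230 and 0.231 in DMSO) at 1.82 and 1.84. Of scores below 9, 99.0% in etoposide and 98.9% in DMSO fell on one of these steps. Regions with scores below 9 that fitted only 1 kind were assigned to it. In etoposide 62628 were coarse and 30080 fine, and in DMSO 42059 were coarse and 115400 fine. Fine steps thus made up 32.4% of the assigned etoposide regions and 73.3% of the assigned DMSO regions. The whole-list median scores were taken over these unlike mixes, whose part in the higher etoposide median was not tested. The source of the steps was not tested. Because the lists differ in their mix, the main comparisons are also given between coarse regions alone and between fine regions alone. Which labelled library gave which kind was not assigned, and regions scoring 9 or more, 69369 in etoposide and 104052 in DMSO, belong to neither set.

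The first comparison asks how far etoposide regions lay where vehicle regions already were. Most did not. Of the etoposide regions 14708, or 8.46% (95% exact binomial interval 8.33 to 8.59), overlapped a DMSO region, and 159106 were etoposide-only. Of the DMSO regions 14761, or 4.97% (4.89 to 5.05), overlapped an etoposide region, and 282146 were DMSO-only. By bases, DMSO regions covered 5.22% of etoposide-covered sequence against 1.89% of the callable autosomes, a ratio of 2.76. With scores of at least 4 in both lists, the shares fell to 5.79% of etoposide and 4.07% of DMSO regions, while the ratio by bases was 2.66. With scores of at least 8 the shares were 3.76% and 2.60% and the ratio 2.77. The share of regions in common went down with the number of regions kept, while the ratio to coverage lay between 2.66 and 2.77. How often regions recur between libraries of 1 treatment cannot be read from pooled lists. More than 1 deposited score was given for 1.01% of etoposide and 2.45% of DMSO regions. A region called etoposide-only or DMSO-only is therefore not shown to be specific to that treatment.

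Relative to coverage, overlap was larger between regions of the same kind of step. Fine etoposide regions overlapped fine DMSO regions in 5.50% of cases, and by bases 5.40 times the coverage. Coarse etoposide regions met coarse DMSO regions in 1.21% of cases, or 3.25 times the coverage. Across kinds the ratios were lower, at 2.22 for fine etoposide with coarse DMSO and 2.07 for coarse etoposide with fine DMSO. As a share of regions the order differed: 2.35% of coarse etoposide regions met a fine DMSO region, more than met a coarse one, and 0.868% of fine etoposide regions met a coarse DMSO region. Fine DMSO regions covered 0.677% of the callable autosomes and coarse ones 0.241%. Among coarse pairs 758 regions of each list were involved, and among fine pairs 1655.

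**Figure D1:**
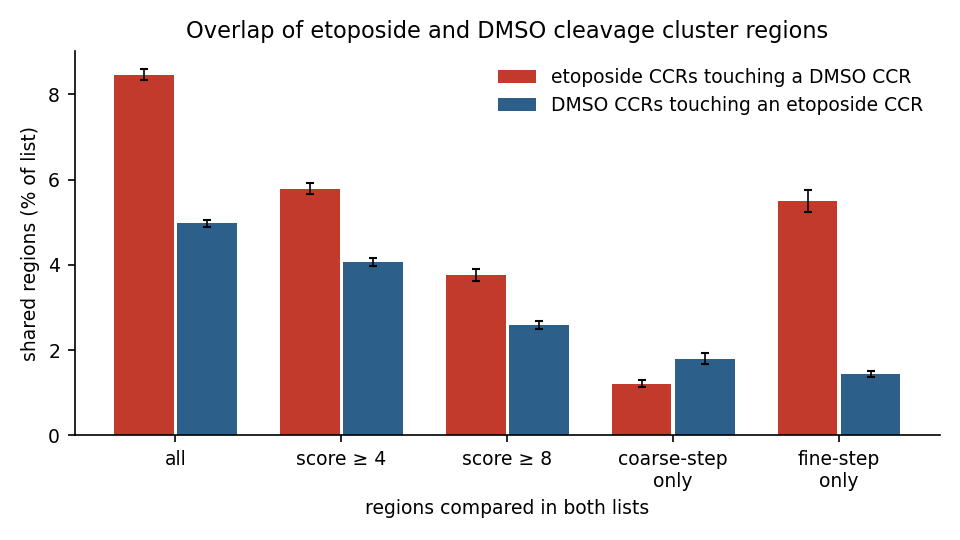
Bars give the percentage of etoposide regions (red) and DMSO regions (blue) that overlap a region of the other list by at least 1 bp, for all regions, for 2 score minimums and for each kind of score step, with exact 95% binomial intervals. Shares are highest for all regions, at 8.46% and 4.97%, and lowest for coarse-step etoposide regions, at 1.21%.

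A high score did not go with being shared. Of 10 equal groups of etoposide regions by score, the lowest (1.82 to 2.51) had 9.81% shared, a middle one (6.43 to 7.79) 7.49%, and the highest (18.7 to 116) 9.48%. Median width went from 139 bp in the lowest to 177 bp in the highest. Counting only regions whose midpoint lay in a DMSO region, the values were 6.92%, 4.78% and 5.33%. In DMSO the shared share was 4.41% in the lowest of 10 such groups and 5.20% in the highest. Median scores of shared and etoposide-only regions were 7.78 and 7.79, and those of shared and DMSO-only regions 6.42 and 6.09. Regions with more than 1 deposited score were shared more often: 16.1% of 1761 in etoposide and 9.28% of 7283 in DMSO. Such regions were wider, with medians of 205 bp and 237 bp. By midpoint their shares were 9.54% and 5.08%, against 5.39% and 3.10% of regions with a single score.

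Where regions coincided, their scores were nearly unrelated. Over 14801 overlapping pairs Spearman's rho was 0.069, and within fine and coarse pairs it was 0.053 (1657 pairs) and 0.10 (758 pairs). These are correlations across sites of the same genome, which share base composition and copy number. The etoposide score was the higher of the pair in 53.1%, at least 2-fold higher in 29.0% and at least 2-fold lower in 22.3%. In fine pairs it was higher in 34.6% and in coarse pairs in 49.1%. Median scores in fine pairs were 2.51 with etoposide and 3.22 with DMSO, and in coarse pairs 6.1 and 6.76. Over all pairs they were 7.78 and 6.42. Only 198 pairs had a score of at least 20 in both lists.

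The strongest sites in common lay both inside and outside protein-coding genes. The highest lower-of-both score was at chr14:58620906-58621247, 12813 bp from DACT1, with 43.82 in etoposide and 60.24 in DMSO. It was followed by chr20:34524439-34524606 in DYNLRB1, a dynein light chain gene, with 40.43 and 73.11, and by chr3:37506947-37507245 in the integrin gene ITGA9, with 38.39 and 84.95. The next was 5353 bp from ZNF764 (39.04 and 37.91). At chr2:11042208-11042392, with 107.06 in etoposide and 37.9 in DMSO and nearest to CIMIP5, the 2 regions shared only 3 bp. The region in EEFSEC, which encodes the selenocysteine elongation factor, had 37.69 and 67.34 at chr3:128161428-128161775. The last of the 8 were 103176 bp from CSF3R (39.06 and 37.21) and 414855 bp from NUP35 (36.6 and 37.2). So 3 of these 8 sites lay in protein-coding genes. Gene bodies held 47.9% of the bases of shared etoposide regions and made up 45.4% of the callable autosomes, so 3 of 8 says little.

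The highest score of each list was at a region without a counterpart in the other. The top etoposide-only region, with 116.19, was at chr15:59239790-59239960 in MYO1E, a class I myosin gene, and the nearest DMSO region was 9043 bp away. The next were in NRXN3, a neurexin gene (106.38, chr14:78477878-78478041), and, on chromosome 8, 3578 bp from ZBTB10 (103.3). TFPI, which encodes an inhibitor of coagulation, held one of 101.28 at chr2:187510185-187510357, and TENM2, a teneurin gene, one of 96.86. The others were nearest to CHI3L1 (97.19), LOC112267897 (96.88) and LCORL (95.47). None of the 8 highest etoposide-only regions was in the genistein, mitoxantrone or p-benzoquinone list, which hold 9.72%, 4.89% and 8.36% of all etoposide-only regions, so 0 of 8 says little. The highest DMSO-only region, with 195.29, lay at chr5:155541192-155541348, 186483 bp from SGCD and 33274 bp from the nearest etoposide region. The next DMSO-only regions were nearest to SI (179.39), KHDRBS3 (175.64), COL26A1 (172.6), CTNNA2 (171.26) and HS6ST1 (168.23), each outside the named gene. Of the 8 highest, 1 was in GEMIN5 (160.78), and 1 with a score of 164.17, on chromosome 18 at 100517 bp from TMEM200C, was also in the mitoxantrone list.

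Etoposide-only regions lay at a median of 2724 bp from the nearest DMSO region. Within 1000 bp lay 23.2% of them, against 22.1% of the callable autosomes, and within 5000 bp 70.6% against 67.1%. For DMSO-only regions the median distance to an etoposide region was 4695 bp, with 14.3% within 1000 bp against 13.7% of callable bases. Overlapping regions are left out of these sets by definition, so shares at short distances are low by construction.

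Etoposide-only regions met the lists of other poisons about as often as DMSO-only regions did. Of etoposide-only regions 9.72% overlapped a genistein region, 4.89% a mitoxantrone region and 8.36% a p-benzoquinone region. For DMSO-only regions the values were 8.93%, 4.55% and 9.11%. The lists differ in extent: genistein regions covered 2.623% of the callable autosomes, mitoxantrone regions 1.2955% and p-benzoquinone regions 2.297%. The etoposide-only shares stood in the order of these coverages, while among the DMSO-only shares that of p-benzoquinone was highest. How often 1 bp overlaps would arise from coverage alone was not tested, so the shares do not rank the poisons by likeness to etoposide. Between coarse regions the genistein values were 9.63% and 9.22% and the mitoxantrone values 4.82% and 4.80%. Fine etoposide-only regions met p-benzoquinone regions in 13.2% of cases and fine DMSO-only regions in 11.0%. Shared regions were higher in each, with 13.1% in the genistein, 6.81% in the mitoxantrone and 12.9% in the p-benzoquinone list.

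The second comparison asks whether etoposide moved regions along the genome. Windows of 5 Mb with at least 250 regions numbered 537, and in them the number of etoposide and DMSO regions of the same kind went together. Spearman's rho was 0.90 between fine etoposide and fine DMSO regions and 0.63 between coarse etoposide and coarse DMSO regions. Within a treatment the kinds did not go together: rho was -0.23 between coarse and fine etoposide regions and -0.02 between coarse and fine DMSO regions. Window numbers of fine regions rose with the number of protein-coding genes (rho 0.47 in etoposide, 0.44 in DMSO) and those of coarse regions went down with it (-0.46 and -0.37). Windows were thus ordered alike across treatments within a kind of step, and not across kinds within a treatment. All these points share genome windows, mappability and the copy number of the line. The scaled ratio of etoposide to DMSO, the ratio of region numbers divided by the ratio of list sizes, showed no relation between the kinds. Over the 537 windows rho of the log2 ratios was -0.002, and 270, or 50.3%, lay on the same side of 0 in both. The SD of the log2 ratio over windows was 0.23 for coarse and 0.26 for fine regions.

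**Figure D2:**
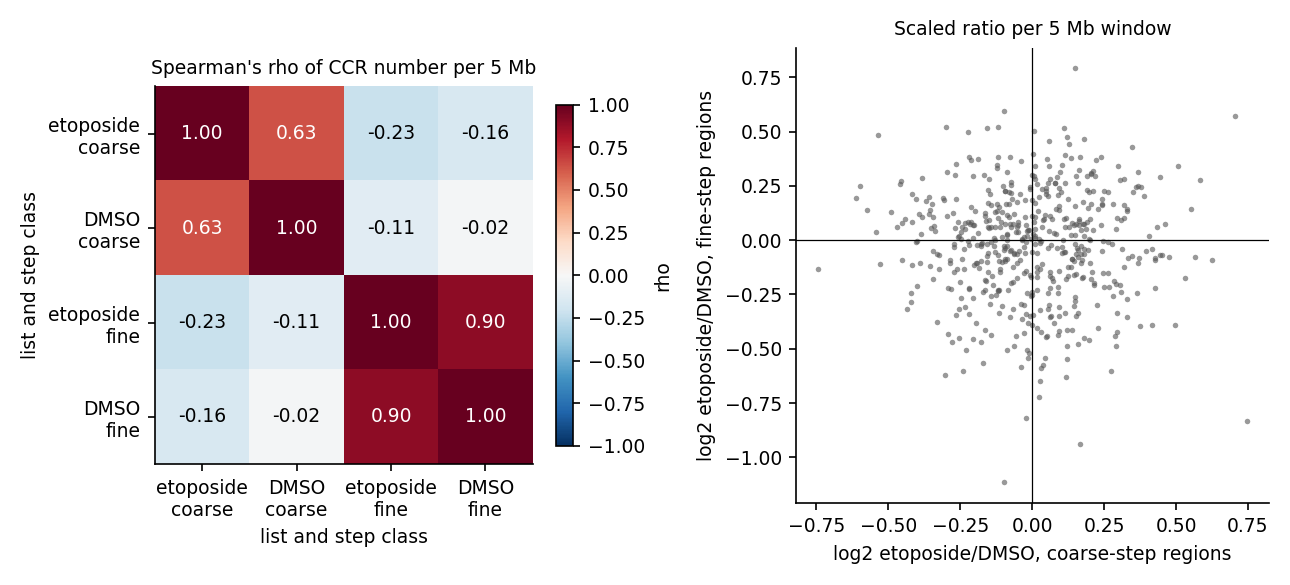
Left, Spearman's rho between region numbers per 5 Mb window (537 windows) for the 4 combinations of list and score step, coloured from -1 to 1. Right, log2 scaled etoposide to DMSO ratio of each window for coarse-step (x) and fine-step (y) regions. Lists of the same kind correlate at 0.63 and 0.90, the kinds do not within a treatment, and the points on the right show no trend.

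At 1 Mb the windows where etoposide was highest against DMSO held few genes. Of 2608 windows with at least 50 regions, 43 (1.65%) had a scaled ratio of at least 1.5 and 45 (1.73%) were at least 1.5-fold lower. The higher windows held a median of 1 protein-coding gene and the lower ones 12, against 5 over all windows. The highest ratio, 2.20, was at 69 to 70 Mb of chromosome 4, with 58 etoposide and 45 DMSO regions, of which 25 and 5 were coarse and 7 and 17 fine. That window touches UGT2B and UGT2A glucuronosyltransferase genes, related genes among which the placement of reads was not tested. It was followed by 160 to 161 Mb of chromosome 4 (34 and 32 regions), 194 to 195 Mb of chromosome 2 (64 and 62) and 56 to 57 Mb of chromosome 13 (67 and 65), none with a protein-coding gene. The window at 65 to 66 Mb of chromosome 4 touched only EPHA5, an ephrin receptor gene, and had 80 and 78. The lowest ratio, 0.532, was at 170 to 171 Mb of chromosome 6, with 19 etoposide and 61 DMSO regions beside DLL1, PSMB1 and TBP. Others were at 143 to 144 Mb of chromosome 8 around the LY6 genes (20 and 62), at 113 to 114 Mb of chromosome 2 around the interleukin 36 genes (33 and 102), at 35 to 36 Mb of chromosome 6 with PPARD (49 and 147) and at 24 to 25 Mb of chromosome 1 with MYOM3 (46 and 137).

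The trend with gene number had opposite signs in the kinds of step. In whole lists the ratio was 1.13 in windows with no gene (300 windows), 1.03 with 1 to 4, 0.974 with 5 to 9, 0.924 with 10 to 19 and 0.904 with 20 or more (202 windows). Between coarse regions it ran from 1.07 with no gene to 0.913 with 20 or more. Between fine regions it ran the other way, from 0.887 to 1.10. The share of fine regions among assigned ones rose with gene number in both lists, from 20.9% to 42.8% in etoposide and from 64.5% to 78.0% in DMSO. Its part in the whole-list trend was not tested.

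**Figure D3:**
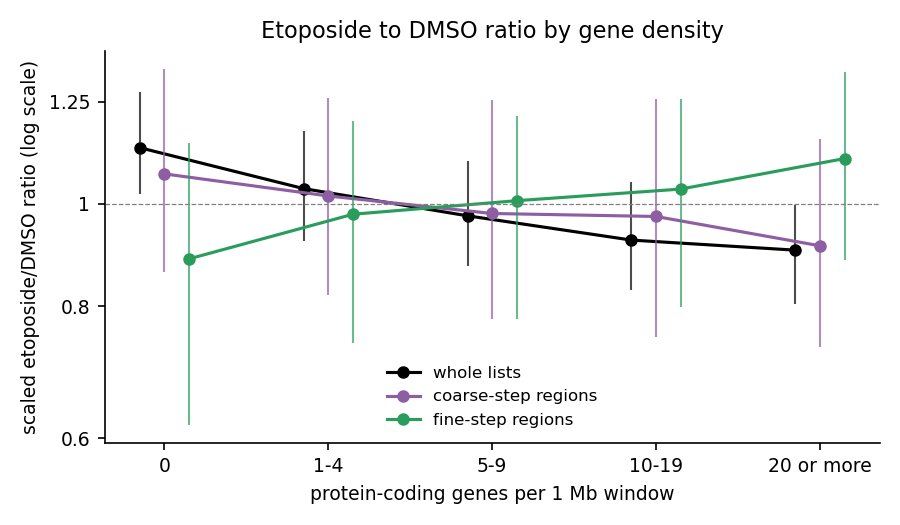
Scaled etoposide to DMSO ratio (log axis) in 1 Mb windows grouped by number of protein-coding genes, for whole lists (black), coarse-step regions (purple) and fine-step regions (green). Points are ratios of summed regions and vertical lines the quartiles over windows. Whole lists fall from 1.13 to 0.904 and fine-step regions rise from 0.887 to 1.10.

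Windows picked in one kind of step did not repeat in the other. Among 2504 windows with at least 20 regions of each kind, 317 (12.7%) had a coarse ratio of at least 1.5, and 45.1% of those had a fine ratio above 1, against 47.7% of all. Of the 238 (9.50%) at least 1.5-fold lower in coarse regions, 51.3% had a fine ratio below 1, against 52.3% of all. Chosen by fine regions, 228 windows (9.11%) were higher and 428 (17.1%) lower, and their coarse ratios lay on the same side in 47.8% and 49.3%, against 50.0% each way of all. By chromosome the whole-list ratio ran from 0.911 on chromosome 1 (95% counting interval 0.893 to 0.929) to 1.13 on chromosome 14 (1.09 to 1.17). Chromosome 13 was at 1.12 (1.08 to 1.15), and the gene-dense chromosome 19 at 0.914 (0.874 to 0.957). Within a kind the range was narrower, from 0.930 to 1.10 for coarse and from 0.928 to 1.10 for fine regions, though single chromosomes lay further from 1. Chromosome 22 was at 0.958 in whole lists, 1.10 in coarse and 1.10 in fine regions, and chromosome 8 at 0.983, 0.948 and 0.928. The kinds lay on the same side of 1 for 6 of 22 chromosomes. The share of etoposide regions that were shared ran from 6.38% on chromosome 13 to 9.64% on chromosome 16.

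The third comparison places the regions by gene ends and promoters. Protein-coding gene bodies made up 45.4% of the callable autosomes and held 46.5% of etoposide-covered and 47.4% of DMSO-covered bases. Within 1 kb of a gene end, etoposide coverage was 0.955 of its genome mean and DMSO coverage 1.04. The log2 ratio of these was -0.12 (95% counting interval -0.18 to -0.068). The interval's width came from counts of region midpoints there, 4241 in etoposide and 7754 in DMSO, and was centred on the ratio of covered bases. Between coarse regions the log2 ratio was -0.046 (-0.16 to 0.071) and between fine regions 0.043 (-0.063 to 0.15). Gene-end coverage was 0.942 and 0.973 of the mean for coarse etoposide and DMSO regions, and 1.22 and 1.18 for fine ones. Shared regions were at 1.03 in etoposide and 1.05 in DMSO.

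Coverage just after start sites was low in both lists. In the 250 bp after the start site coverage was 0.609 of the genome mean in etoposide and 0.750 in DMSO. In the 250 bp before it the values were 0.712 and 0.815. From 750 to 500 bp upstream both lists were at 1.06. Coarse regions gave 0.632 and 0.773 in the first 250 bp after the start, and fine regions 0.679 and 0.955. In the 250 bp before it coarse regions gave 0.753 and 0.975. There fine regions had the reverse order, with etoposide at 1.13, above the genome mean, and DMSO at 0.934. From 750 to 500 bp upstream fine regions were at 1.54 in etoposide and 1.19 in DMSO, so both were lower next to the start. Only 79 promoter windows held a fine etoposide region, and these values have no interval.

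Promoters with a region had a lower median GC than those without. Of the 15100 promoter windows 344 (2.28%) held an etoposide region and 653 (4.32%) a DMSO region. Their median GC was 56.3% and 56.0%, against 63.3% in the 14128 with neither. In the lowest of 5 equal groups by GC, up to 51.3%, 3.97% held an etoposide region (95% interval 3.31 to 4.73) and 6.92% a DMSO region (6.04 to 7.88). In the next group the shares were 3.44% and 7.62%. In the highest, from 72.0%, the shares were 0.265% (0.114 to 0.521) and 0.397% (0.205 to 0.693). The lower share at high GC was thus present with the drug and without it. From the lowest to the highest group, coarse shares went from 1.26% to 0.132% in etoposide and from 1.09% to 0.0662% in DMSO. Fine shares went from 1.03% to 0.0331% and from 3.25% to 0.132%. CpG pairs per window went with GC, with medians of 3 in the lowest group and 39 in the highest.

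**Figure D4:**
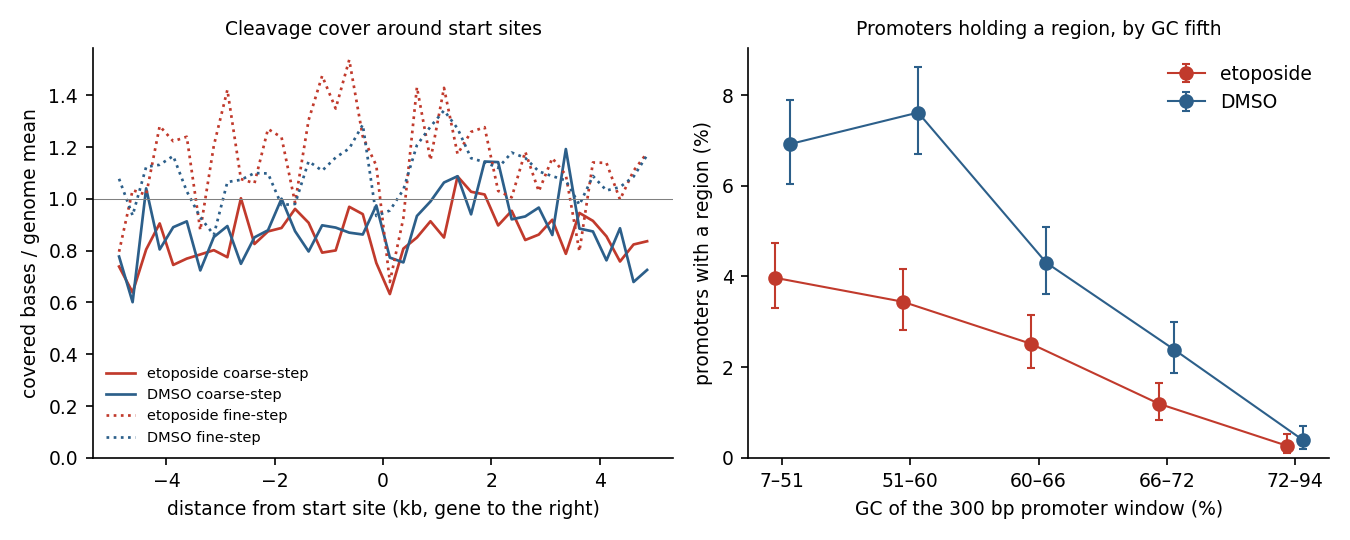
Left, covered bases over the genome mean in 250 bp bins from 5 kb before to 5 kb after 15100 start sites, for coarse-step (solid) and fine-step (dotted) regions of etoposide (red) and DMSO (blue). Right, percentage of 300 bp promoter windows that hold a region in 5 equal groups by GC content, with exact 95% intervals; etoposide falls from 3.97% to 0.265% and DMSO from 6.92% to 0.397%.

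The fourth comparison asks which genes held more regions with the drug than list size would give. Of 19122 autosomal protein-coding genes 3118 had at least 20 regions in both lists together, within the gene body and 2 kb on each side. A scaled ratio of at least 2 was found in 73 (2.34%) and of at most 0.5 in 133 (4.27%). With scores of at least 4 the counts were 70 and 77, and with the DMSO list reduced to the etoposide number by highest score 72 and 65, so the excess of lower calls was not kept. Median ratio was 0.989. The 95% counting interval of the ratio left out 1 for 120 of the 3118 genes, with no correction for their number. Over 3118 such intervals counting error alone can give this many, so the 120 are not read as differing genes.

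The genes with the highest ratios each held fewer than 20 vehicle regions. SLC30A7, a Golgi zinc transporter gene (chromosome 1, 100896090 to 100996078), had 15 etoposide and 6 DMSO regions, a ratio of 4.27 (1.57 to 13.4). ZNF277, a zinc finger gene on chromosome 7, also had 15 and 6. BRIP1, which encodes a helicase of the Fanconi anaemia pathway (chromosome 17, 61679139 to 61863528), had 19 and 9, a ratio of 3.61 (1.55 to 9.05), with 7 and 2 coarse and 4 and 2 fine regions. PDS5A, a cohesin regulator gene, had 17 and 9, and the lymphocyte receptor gene CD96 had 14 and 7. PHF14, which encodes a chromatin reader, had the most regions of the group, with 28 and 16, a ratio of 2.99 (1.56 to 5.91). The complement gene C6 had 15 and 8, and VWC2L, EXD3 and FYB2 had 14 and 6, 14 and 8, and 13 and 8. In SLC30A7 coarse regions numbered 6 and 1, in CD96 10 and 2, and in PHF14 10 and 5. Fine regions of these genes numbered 2 and 2, 0 and 3, and 3 and 1. CD96 and VWC2L had fine ratios of 0, and the other genes named here had fine ratios above 1.

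The genes with the lowest ratios each held at least 18 vehicle regions and at most 4 etoposide regions. ADGRB1, an adhesion receptor gene of brain (chromosome 8, 142449649 to 142545007), had 1 etoposide and 19 DMSO regions, a ratio of 0.0899 (0.0022 to 0.566), and 13 of the 19 were fine and 6 coarse. COPG2, which encodes a coatomer subunit, had 2 and 21, and PLAG1, a zinc finger oncogene, had 2 and 20. The coagulation factor V gene F5, FLRT1, METAP1D and SHANK1, a postsynaptic scaffold gene, each had 2 and 18. SLC6A6, the taurine transporter gene, had 3 and 27, with 16 of the 27 fine, LZTFL1 had 3 and 22, and C4orf50 had 4 and 29. With scores of at least 4 in both lists the ratio of SHANK1 was 0.407 and that of COPG2 0.110.

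Genes picked in one kind of step did not repeat in the other. Among 1027 genes with at least 10 regions of each kind, 96 (9.35%) had a coarse ratio of at least 2, and 49.0% of those had a fine ratio above 1, against 48.0% of all. Of the 74 (7.21%) with a coarse ratio of at most 0.5, 45.9% had a fine ratio below 1, against 52.0% of all. Chosen by fine regions, 70 genes (6.82%) were higher and 141 (13.7%) lower. Their coarse ratios lay on the same side in 54.3% and 46.8%, against 52.4% and 47.6% of all. The kinds come from separate regions, so each gene's ratio was here read in regions that had not chosen it.

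The genes with the most shared regions were very long and held many regions of each list. The 5 named first were chosen by their number of shared regions. RBFOX1, a neuronal splicing regulator gene of 2474 kb, held 218 etoposide and 374 DMSO regions, with 32 shared in each list and a ratio of 0.996 (0.839 to 1.18). ASIC2, an ion channel gene, held 95 and 199 with 18 shared, and NRXN3 141 and 171 with 16 shared. CAMTA1 held 90 and 162 with 15 shared, and DPP10 98 and 161 with 14. The NRXN3 ratio of 1.41 (1.12 to 1.77) was the one of these 5 whose counting interval left out 1, and its coarse and fine ratios were 1.05 and 0.977. Other very long genes had fewer shared: 12 of 138 etoposide regions in CNTNAP2, 9 of 154 in DLG2 and 8 of 136 in CSMD1. Of all etoposide regions 8.46% were shared.

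Leukaemia fusion genes, which take part in translocations after TOP2 poison treatment or in primary leukaemia, held 330 etoposide and 620 DMSO regions over 33 genes. Scaled to list size this was 0.909 (95% counting interval 0.793 to 1.04), with 0.950 for coarse and 0.920 for fine regions. Of the 17 with at least 20 regions none had a ratio of at least 2 or at most 0.5, where 2.34% and 4.27% of all genes did, and 5 lay above 1. Their median was 0.976, beside 0.989 for all genes. At those shares few calls would be looked for among 17 genes, so the lack of calls says little.

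KMT2A, the methyltransferase gene rearranged in etoposide-related leukaemia, held 6 etoposide and 15 DMSO regions, a ratio of 0.683 (0.217 to 1.86). Coarse regions numbered 3 and 2 and fine regions 1 and 7, for ratios of 1.01 and 0.548. Of all KMT2A regions, 1 etoposide and 2 DMSO regions overlapped. Its partner genes lay on both sides of 1. MLLT3 (AF9) had 26 and 32, a ratio of 1.39 (0.794 to 2.40), MLLT10 had 12 and 14, AFF1 11 and 24, AFDN 12 and 22 and ELL 8 and 14. EPS15 had 8 and 14, SEPTIN9 20 and 35 and GAS7 20 and 28. CREBBP, an acetyltransferase gene, had the lowest ratio of the tested ones, 0.526 (0.206 to 1.20) from 8 and 26. MECOM, whose product is a zinc finger regulator of stem cells, had 40 and 96 (0.712, 0.479 to 1.04), and the blood transcription factor genes RUNX1 and ETV6 had 13 and 35, and 15 and 36. RUNX1T1 had 16 and 19, PRDM16 31 and 54 and NSD1 16 and 21.

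Fusion genes with fewer than 20 regions allow less. PML had 3 etoposide and 12 DMSO regions and RARA, its retinoic acid receptor partner, 3 and 8. NUP98, a nuclear pore gene, had 9 and 6, the reverse order to most, and NUP214 1 and 3. CBFB had 4 and 9, DEK 3 and 8, EP300 3 and 7, MLLT1 3 and 6, TCF3 2 and 5, RPN1 1 and 4 and MLLT11 1 and 1. HOXA9 (3.1 kb), MLLT6 (24.5 kb) and MYH11 (154 kb) had no region in either list. The list means were 6.69 etoposide and 11.4 DMSO regions per 100 kb. MYH11 was thus empty in both lists despite its length, and why was not tested. The counting intervals of the 17 better-covered genes all included 1, and smaller differences than those intervals were not detectable at this depth.

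**Figure D5:**
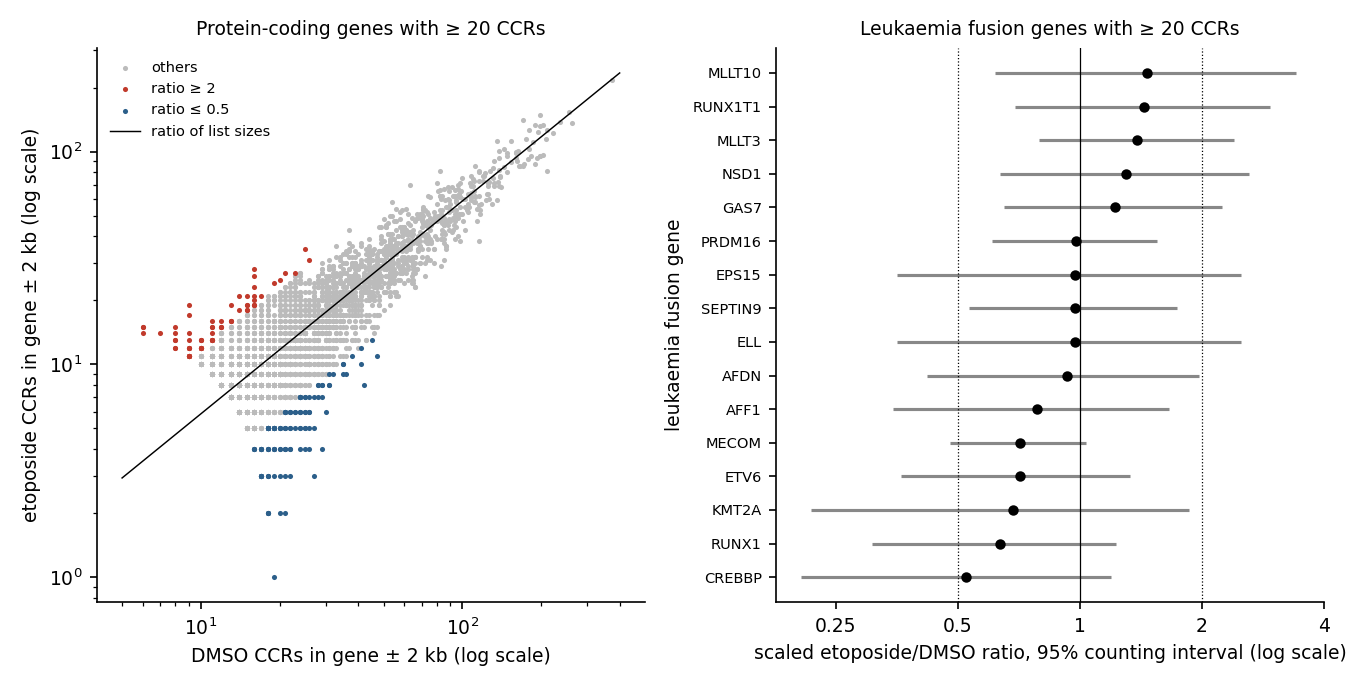
Left, etoposide against DMSO regions (both log axes) in 3118 protein-coding genes with at least 20 regions, with ratios of at least 2 in red, of at most 0.5 in blue and the ratio of list sizes as a line. Right, scaled ratio with its 95% counting interval for 16 of the 17 leukaemia fusion genes with at least 20 regions (log axis; dotted lines at 0.5 and 2). All 16 points lie between the dotted lines, from 0.526 for CREBBP to 1.46 for MLLT10.

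No gene with at least 20 regions in the other lists passed either fold, where 2.34% and 4.27% of all tested genes did. Such genes numbered 20 in the very long and fragile-site list, 10 in the neuronal and 6 in the topoisomerase and repair list. The transport, erythroid and lymphoid lists had 1 each, and the immediate early and ribosomal lists 0, so the lack of calls says little. Topoisomerase and break repair genes held 126 etoposide and 192 DMSO regions, a scaled ratio of 1.12 (0.888 to 1.41), with 4 of 6 such genes above 1 and ratios of 1.34 for coarse and 1.33 for fine regions. XRCC4, an end-joining factor gene, had 30 and 36, PRKDC, the gene of the DNA-dependent protein kinase, 8 and 21, and the resection factor gene RBBP8 7 and 17. Etoposide transport and metabolism genes held 30 and 53, or 0.967 (0.596 to 1.54), with 0.522 for coarse (7 and 9 regions) and 1.44 for fine regions (9 and 24). The efflux pump gene ABCB1 had 13 and 17, ABCC2 6 and 12 and ABCC3 3 and 10. Immediate early genes held 15 and 27, or 0.949 (0.469 to 1.85), with 5 of 18 free of regions. Their coarse and fine ratios, 0.672 and 1.60, rest on 3 and 3 and on 5 and 12 regions. EGR1 had 3 and 1, ATF3 3 and 8 and NR4A1 1 and 7.

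Lists of genes active and silent in K562 were set side by side, and the difference between them was not tested. Erythroid genes that the line transcribes held 62 and 107 regions, a ratio of 0.990 (0.712 to 1.37), with ANK1, the erythrocyte ankyrin gene, at 26 and 39 and SLC25A37 at 6 and 11. Coarse and fine ratios of the erythroid list were 1.34 and 1.07. Lymphoid markers, silent in this line, held 45 and 100, or 0.769 (0.528 to 1.10), and their coarse and fine ratios were 1.18 and 0.803. PAX5, a B-cell factor gene, had 11 and 28, RAG1 4 and 8 and CD28 4 and 7. Neuronal markers held 451 and 798, or 0.965 (0.858 to 1.08), with CNTNAP2 at 138 and 237 and RBFOX3 at 43 and 92, and coarse and fine ratios were 1.05 and 0.913. Ribosomal protein genes, short and heavily transcribed, held 24 and 33, or 1.24 (0.703 to 2.17), with 0.863 for coarse and 1.81 for fine regions from at most 17 regions each. In fine regions both active lists were thus above 1 and both silent lists below it. In coarse regions the silent lists were above 1 and the active lists on both sides. Fine ratios were also above 1 in the topoisomerase and repair (1.33), transport (1.44) and immediate early lists (1.60). They were below 1 in the leukaemia fusion (0.920) and very long lists (0.946), and none of these fine ratios has an interval. RPS24 had 3 and 7, RPL23A 2 and 3 and RPL8 2 and 3. The very long and fragile-site genes gave the narrowest interval. They held 2175 and 3747 regions, a ratio of 0.992 (0.940 to 1.05), with 10 of 20 genes above 1 and all 20 between 0.659 and 1.28. Their coarse and fine ratios were 0.951 and 0.946. DLG2 had 154 and 257 and CSMD1 136 and 263.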

How the data were processed

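TOP2A-bound DNA of K562 cells was captured with an antibody after sonication, amplified and sequenced, per the labels' protocols. The authors deposited 1 union list of CCRs per treatment from the pooled amplified libraries, with a position and a score or several scores per region. How regions were called, and the unit of the score, is not given in the sources used here. In the submitters' processing notes stand SAMtools 0.1.19, Bowtie2 2.1.0 and the build hg38. No list states how deeply its libraries were sequenced, so depth is unknown.

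Regions on chromosomes 1 to 22 were kept, and the highest of several scores was used. Overlap was 1 bp or more. Genes and promoter windows came from RefSeq tables of GRCh38.p14. All entries of the gene lists but SYP matched an autosomal gene. Regions were counted in gene bodies with 2 kb on each side and in 1 Mb windows by midpoint, and ratios were scaled to list size. Calls were fixed sizes: 2-fold for genes with at least 20 regions and 1.5-fold for windows with at least 50. Intervals are exact binomial at 95%. At gene ends the interval was computed from midpoint counts and then moved so that it centred on the ratio of covered bases. Regions with scores below 9 were assigned to a coarse or fine step if all their scores fitted only that kind, within 0.2% (fine) or 0.15% (coarse) plus rounding.

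The text names the 8 strongest shared, etoposide-only and DMSO-only regions, the 10 highest and lowest gene ratios, the 5 genes with most shared regions, all leukaemia fusion genes and the 3 best-covered genes of each other list. It also names the 5 highest and lowest windows. A few genes that this rule names are not reported here singly, and the counts and sums of their lists include them. Promoters to print and the searched motifs were chosen after seeing the data. The comparison and the gene lists were chosen with earlier results of these data known. The counting, overlap and step steps were tested on simulated data. Scripts ran in Python 3.11.15 (scipy 1.17.1, pandas 2.3.3, numpy 2.4.6, matplotlib 3.10.9).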

Additional observations from a re-analysis of the deposited data

How the results depend on the processing

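No paired analysis was possible because the authors pooled the libraries of each treatment into 1 list, so replicate numbers cannot be tied to regions, and for the same reason no library could be left out. Of 72 alternatives, 29 kept the value within its counting interval or, for a count, within 1.5 times.

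The share of etoposide regions overlapping a DMSO region, 8.46%, was 5.79% with scores of at least 4, 3.76% with at least 8 and 5.52% when the lowest of several scores had to reach 4. It was 5.07% with the DMSO list reduced to the etoposide number by highest score, 8.00% with single-score regions, 1.21% between coarse and 5.50% between fine regions. It was 6.17% with 50% of the shorter region required, 6.71% with 50 bp required, and 5.44% by midpoint, an alternative chosen after seeing the data. In the same order the DMSO share, 4.97%, was 4.07%, 2.60%, 3.94%, 5.06%, 4.77%, 1.80%, 1.43%, 3.61%, 3.93% and 3.15%.

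The log2 ratio of covered bases at gene ends, -0.12, was -0.030 with the DMSO list reduced and -0.046 between coarse regions. Between fine regions it was 0.043, the one reversal by covered bases. Its interval, from midpoint counts centred on that ratio, included 0 in all 3. With the DMSO list reduced, 4241 etoposide and 4234 DMSO regions had their midpoint at a gene end.

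Genes at least 2-fold higher, 73, numbered 27 with scores of at least 8, 16 of 417 tested between coarse regions, 38 of 709 between fine regions and 3 of 953 with at least 50 regions per gene. Genes at least 2-fold lower, 133, numbered 77 with scores of at least 4, 56 with at least 8, 65 with the DMSO list reduced, 17 between coarse, 58 between fine and 5 with at least 50 regions per gene. With the DMSO list reduced, 72 genes were higher, so lower calls were then not in excess.

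Windows at least 1.5-fold higher, 43, of 2608 tested, numbered 100 of 2463 with scores of at least 8, 27 of 2581 with the DMSO list reduced, 125 of 1496 between fine regions and 0 of 537 at 5 Mb. Between coarse regions they were 42 of 392, a similar count from far fewer windows. Windows at least 1.5-fold lower, 45, numbered 112, 21, 171 and 0 with scores of at least 8, the DMSO list reduced, fine regions and 5 Mb windows, 18 between coarse regions and 72 by covered bases. Fewer regions per window widen the counting spread of the ratio. The cause of these moves was not tested beyond the numbers tested under each setting.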
